A study of Mus musculus with 6 samples.

Results

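Nucleotide excision repair removes bulky lesions that distort the DNA helix, such as ultraviolet photoproducts, by cutting out a short single strand around the damage and filling the gap. Damage is found either anywhere in the genome, by DDB2 with DDB1 and by XPC, or at a stalled RNA polymerase, by ERCC6. Both routes then use the helicases ERCC2 and ERCC3 of the transcription factor TFIIH, the verifying protein XPA, and the nucleases ERCC5 and ERCC4 with ERCC1. The 10 genes described here, Xpa, Xpc, Ddb1, Ddb2 and Ercc1 to Ercc6, were taken by name from a table of 32285 genes. All 10 were in the table and all 10 passed the filter on low counts, among 15104 genes tested.

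The cells were germline stem (GS) cells, cultured mouse spermatogonia of strain DBA/2 with the genotype DBA/Tg14(act-EGFP-OsbY01), first derived from testes at 2 to 3 days of age. They were grown with GDNF and FGF2 on a layer of mouse embryonic fibroblasts, so that a library can also hold RNA of feeder cells. Both groups carried the same transgene and were frozen for 6 months, one aboard the International Space Station (Space GS cells) and the other on Earth (Ground GS cells). The study sampled RNA on the day after thawing, before any passage, and each group had 3 libraries. No fresh, unfrozen cells were among the 6 libraries, so the comparison is between storage places and not with cells that were never frozen. For RNA-seq the study refers to 3 lines of GS cells from Space and Ground. The labels do not say which libraries share a line or a culture, or whether both groups hold the same lines. The p-values therefore measure only the spread between these libraries, which may be technical. The title and the treatment label of all 6 libraries contradict each other, and every direction below follows the titles, which the column names of the count table share, and would turn round under the treatment label.

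Libraries held 19015985 to 24110916 counts. The share of mitochondrial transcripts was 3.09%, 11.5% and 5.69% for Ground and 2.51%, 7.12% and 2.81% for Space (libraries 1 to 3), so that Ground-2 and Space-2 were the richest in their groups. Levels are given as CPM, counts per 1000000 of the library size after TMM scaling (trimmed mean of M-values). Where 3 values follow each other they are libraries 1, 2 and 3 of the group. All 14 spermatogonial markers examined passed the filter, and their summed level was 3454 to 3556 CPM in Ground and 3476 to 3565 CPM in Space. The 17 feeder fibroblast markers summed to 1095 to 1102 CPM in Ground and 869.2 to 1115 CPM in Space. Of these markers 16 of 17 had a negative log2 fold change, against 7743 of 15104 tested genes, with a median of -0.31 and 0 past the threshold. Fn1 and Col5a1 were the largest parts of each sum (424.0 and 298.7 CPM in Ground-1, 410.2 and 230.6 in Space-1). The sums therefore say little of the weaker markers. Of 5 macrophage markers 4 averaged under 1 CPM, with Adgre1 and Csf1r at no more than 0.0823 CPM in any library, while Cd68, a lysosomal protein gene, had 14.0 to 21.98 CPM.

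Levels across the 10 genes spanned 49.9-fold when counts were divided by exon length (CPM per kb of exon, mean of the 6 libraries). Ddb1 was the highest with 102.5 ± 3.16 CPM per kb, and Ercc4 the lowest with 2.06 ± 0.377 (SD, n = 6). In between came Ercc3 with 59.3, Ercc2 with 25.3, Xpc with 18.2, Ddb2 with 15.0, Ercc1 with 6.94, Ercc6 with 6.92, Xpa with 3.13 and Ercc5 with 2.64 CPM per kb. The median of all tested genes was 5.24 CPM per kb. The recognition and helicase genes and Ercc1 lay above that median, and Xpa and the nuclease genes Ercc5 and Ercc4 below it. From Ddb1 down to Ddb2, the first 5 genes of the order had ranges over the libraries that did not touch those of their neighbours, and Ercc6 lay apart from Xpa. The levels were not corrected for exons that overlap another gene, as 23.8% of the exon length of Ddb2 does. The order of genes of close level, such as Xpc and Ddb2, may depend on this. Ercc1 and Ercc6 overlapped, with Ercc1 higher in 3 of 6 libraries. Xpa overlapped with Ercc5, and Ercc5 with Ercc4, although Ercc5 was above Ercc4 in 6 of 6 libraries.

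**Figure D1:**
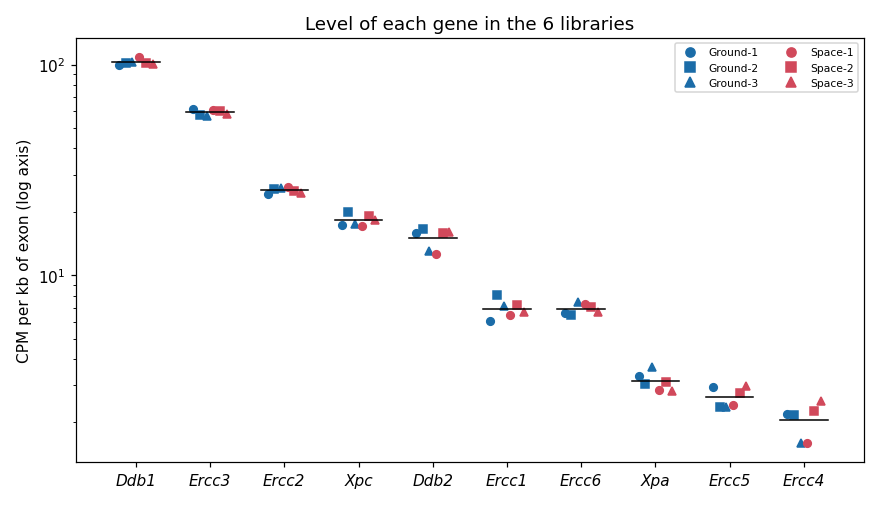
Level of each of the 10 genes in CPM per kb of exon on a log axis, with 1 point per library (blue Ground, red Space; circle, square and triangle for numbers 1 to 3) and a line at the mean of the 6. Ddb1 lies at 99.8 to 108.4 and Ercc4 at 1.60 to 2.52, and within every gene the blue and red points overlap.

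The promoters of 7 of the 10 genes were listed in RefSeq (GRCm38.p6), as 250 bases before and 50 after the start site; Xpc, Ddb2 and Ercc3 were not matched. Those of Ddb1, the gene with the highest level, and of Ercc4 and Ercc5, the pair with the lowest, are shown to set the extremes of the order side by side. Capitals mark matches on either strand to the letters GGGCGG of a GC box, to the pentamer that names the CCAAT box, to the letters CCGGAA at the core of sites for ETS factors, or to the TATA box letters TATAAA, and no matches in these windows overlapped. Start sites here are those of RefSeq and can differ from the GENCODE gene starts given below. In GENCODE, Ddb1 starts at 10605327, before its whole window, and Ercc4 at 13109684. The windows are chr19:10605347-10605646 on the plus strand for Ddb1, chr16:13109486-13109785 on the plus strand for Ercc4 and chr1:44147494-44147793 on the plus strand for Ercc5.
Ddb1: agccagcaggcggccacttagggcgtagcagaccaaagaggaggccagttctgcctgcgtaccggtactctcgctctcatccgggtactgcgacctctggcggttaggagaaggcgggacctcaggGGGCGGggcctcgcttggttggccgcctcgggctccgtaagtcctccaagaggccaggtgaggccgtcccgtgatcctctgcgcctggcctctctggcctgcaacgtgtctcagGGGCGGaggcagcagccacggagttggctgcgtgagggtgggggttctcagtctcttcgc
Ercc4: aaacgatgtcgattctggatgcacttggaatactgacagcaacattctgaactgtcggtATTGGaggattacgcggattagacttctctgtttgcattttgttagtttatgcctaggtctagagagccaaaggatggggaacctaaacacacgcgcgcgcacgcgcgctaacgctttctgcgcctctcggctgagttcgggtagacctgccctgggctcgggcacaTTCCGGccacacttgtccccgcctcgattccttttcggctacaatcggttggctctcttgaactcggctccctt
Ercc5: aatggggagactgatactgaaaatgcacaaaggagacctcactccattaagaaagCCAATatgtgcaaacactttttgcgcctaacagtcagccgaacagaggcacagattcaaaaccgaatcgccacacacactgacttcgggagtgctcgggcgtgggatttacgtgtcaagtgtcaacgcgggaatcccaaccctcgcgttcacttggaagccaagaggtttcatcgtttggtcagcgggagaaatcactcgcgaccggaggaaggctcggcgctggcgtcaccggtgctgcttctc

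Ddb1 held 2 GC boxes, starting at positions -124 and -10 from the start site, and none of the other motifs. Ercc4 held 1 CCAAT box at -191 and 1 ETS core at -24, both on the reverse strand, and Ercc5 held 1 CCAAT box at -195. Of the windows not shown, Ercc1 held 1 GC box and 1 ETS core, and Ercc6 held 1 GC box. Ercc2 held 1 GC box and 3 CCAAT boxes, and Xpa held 1 CCAAT box. Among all 32851 RefSeq promoter windows of this length, 35.7% held a GC box, 37.4% a CCAAT box, 14.9% an ETS core and 13.6% a TATA box. None of the 7 windows held TATAAA. All 7 held 12 or more CG dinucleotides, from 12 in Xpa to 27 in Ercc2. The median of all windows was 7, and 60.4% of all windows held fewer than 12. These matches describe the letters of the windows and were not tested against the levels.

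Between Space and Ground GS cells, none of the 10 genes differed beyond the spread between libraries. With edgeR's quasi-likelihood test 0 of 10 had a Benjamini-Hochberg adjusted p under 0.05, with 0.9999 for each gene, where 0% of all tested genes were called. At an unadjusted p under 0.05 the count was 0 of 10, against 0.609% of all tested genes (92 genes). That share lies well below the 0.05 expected of unchanged genes in independent libraries. The p-values may therefore be too large and the intervals too wide, and the cause was not tested. DESeq2 and limma-voom also gave 0 of 10, with 0 at an unadjusted p under 0.05 in both. In 0 of 10 genes did the 3 libraries of one group lie apart from those of the other, against 3.59% of all tested genes. The log2 fold changes (Space minus Ground) ran from -0.19 to 0.10, with 6 positive and 4 negative and a median of 0.013, beside a median of -0.0020 over all tested genes. A missed threshold does not show equal levels, so the 95% interval of the Space to Ground ratio is given for each gene below.

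**Figure D2:**
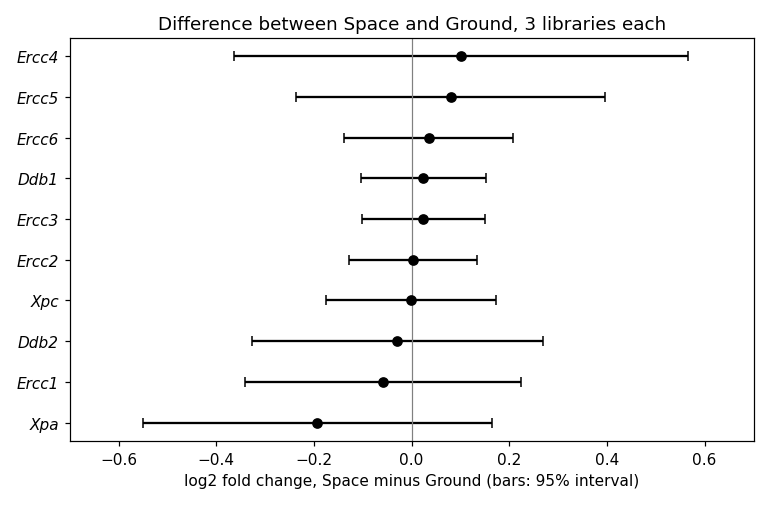
Log2 fold change of each gene, Space minus Ground, as a point with its 95% interval from edgeR's quasi-likelihood fit, 3 libraries per group. Each of the 10 intervals includes 0; Ercc3 has a narrow one, from -0.10 to 0.15, and Ercc4 the widest, from -0.36 to 0.57.

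The genes that find damage across the genome differed in how steady they were. Ddb1 (ENSMUSG00000024740, chromosome 19, 10605327 to 10629819) encodes the adaptor of CUL4 ubiquitin ligases that carries DDB2. Its level was 639.5, 652.0 and 662.2 CPM for Ground and 694.7, 650.2 and 641.9 CPM for Space. The highest value was in Space-1 and the lowest in Ground-1, 1.09-fold apart, and the groups overlapped. Its log2 fold change was 0.024 (SE 0.055), with the ratio between 0.930 and 1.11.

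Ddb2 (ENSMUSG00000002109, chromosome 2, 91211572 to 91236982) encodes the subunit that binds ultraviolet photoproducts directly. It had 43.5, 45.2 and 35.5 CPM for Ground and 34.4, 43.4 and 43.9 CPM for Space. Ground-3 and Space-1 were low, and the other 4 libraries lay within 43.4 to 45.2 CPM. The group means were 41.4 ± 5.19 CPM for Ground and 40.6 ± 5.35 for Space (SD, n = 3), and the log2 fold change was -0.029 (SE 0.13), with the ratio between 0.797 and 1.21.

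Xpc (ENSMUSG00000030094, chromosome 6, 91489305 to 91515888) encodes the protein that binds the distorted helix and recruits TFIIH. The level of Xpc was 94.9, 109.4 and 96.2 CPM for Ground and 94.4, 105.3 and 100.3 CPM for Space. It was highest in Ground-2 and Space-2, as was Ercc1. These were the libraries richest in mitochondrial transcripts in their groups, and the part of that share in the level of either gene was not tested. The pattern was picked after the values were seen, and how many of all tested genes share it was not counted. The group means of Xpc were 100.1 ± 8.01 CPM and 100.01 ± 5.47 (SD, n = 3), with a log2 fold change of -0.0017 (SE 0.075) and a ratio between 0.885 and 1.13.

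Ercc6 (ENSMUSG00000054051, chromosome 14, 32513521 to 32580990) encodes the ATPase, also called CSB, that binds RNA polymerase stalled at a lesion. It had 84.7, 82.7 and 96.0 CPM for Ground and 93.8, 90.7 and 85.5 CPM for Space. Ground-3 and Space-1 were the highest, where Ddb2 was the lowest. For Ercc6 the log2 fold change was 0.035 (SE 0.075), and the ratio lay between 0.909 and 1.15.

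The helicase genes of TFIIH, a complex that opens DNA in repair and in transcription by RNA polymerase II, were the steadiest of the list together with Ddb1. Ercc2 (ENSMUSG00000030400, chromosome 7, 19382010 to 19395694), also called XPD, had 101.0, 107.4 and 108.2 CPM for Ground and 109.2, 105.2 and 102.8 CPM for Space. Its highest and lowest libraries were 1.08-fold apart. For Ercc2 the log2 fold change was 0.0031 (SE 0.056), with a ratio between 0.915 and 1.10.

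Ercc3 (ENSMUSG00000024382, chromosome 18, 32240300 to 32270151), also called XPB, had 174.1, 163.7 and 162.3 CPM for Ground and 173.0, 169.7 and 165.8 CPM for Space. The lowest and the highest value were both in Ground, 1.07-fold apart, and they enclosed all 3 Space libraries. Its log2 fold change was 0.024 (SE 0.054), with a ratio between 0.932 and 1.11.

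Xpa (ENSMUSG00000028329, chromosome 4, 46155347 to 46196311) encodes the small zinc finger protein that checks the lesion and positions the nucleases. It had the largest log2 fold change of the 10 in size, -0.19 (SE 0.15), on only 108 to 158 counts per library. Its level was 6.30, 5.75 and 6.93 CPM for Ground and 5.39, 5.91 and 5.32 CPM for Space. Ground-1 and Ground-3 lay above all Space libraries, but Ground-2 lay below Space-2, so that the groups overlapped. The group means were 6.33 ± 0.589 CPM and 5.54 ± 0.324 (SD, n = 3), and the unadjusted p of edgeR's quasi-likelihood test was 0.248 (adjusted p = 0.9999). The interval of the ratio, 0.683 to 1.12, includes a ratio of 1.

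Of the genes of the incision step, Ercc5 and Ercc4 were the most weakly expressed of the 10 per length. Ercc5 (ENSMUSG00000026048, chromosome 1, 44147744 to 44181260), also called XPG, makes the cut on the 3′ side of the lesion. It had 17.3, 13.9 and 13.9 CPM for Ground and 14.1, 16.1 and 17.5 CPM for Space. Ground-1 and Space-3 were the highest and the values of the groups interleaved. For Ercc5 the log2 fold change was 0.080 (SE 0.14), with a ratio between 0.849 and 1.32.

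Ercc4 (ENSMUSG00000022545, chromosome 16, 13109684 to 13150617), also called XPF, is the catalytic subunit of the nuclease that cuts on the 5′ side. It had 14.8, 14.5 and 10.7 CPM for Ground and 10.7, 15.2 and 17.0 CPM for Space. Ground-3 and Space-1 were the lowest, as for Ddb2, and Space-3 was 1.58-fold above Ground-3. The group means were 13.4 ± 2.26 CPM and 14.3 ± 3.21 (SD, n = 3). The log2 fold change of 0.10 (SE 0.20, ratio between 0.777 and 1.48) turned to -0.030 without Ground-3 and to -0.042 without Space-3.

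Ercc1 (ENSMUSG00000003549, chromosome 7, 19344778 to 19356524) encodes the partner that holds ERCC4 on DNA and has no cutting activity itself. It had 18.8, 25.02 and 22.2 CPM for Ground and 20.1, 22.5 and 20.8 CPM for Space. The lowest and the highest library were both in Ground, 1.33-fold apart. The log2 fold change of -0.059 (SE 0.12, ratio between 0.789 and 1.17) turned to 0.042 without Ground-2.

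**Figure D3:**
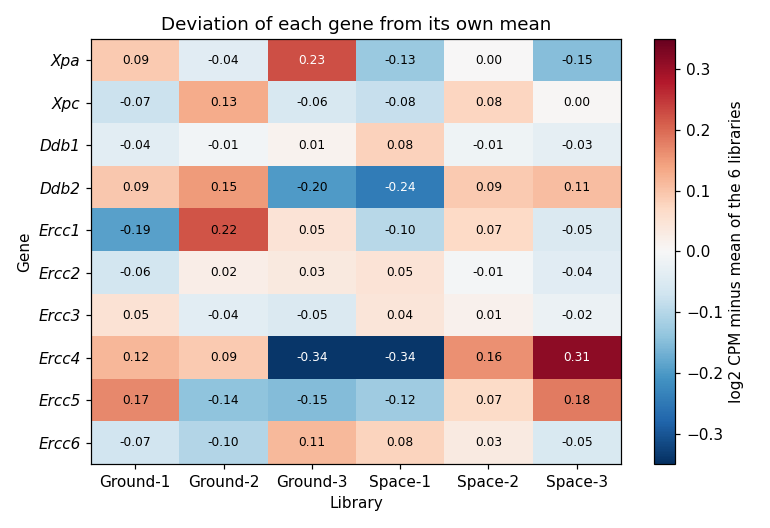
Heat map of the log2 CPM of each gene (rows) in each library (columns) minus the gene's mean over the 6 libraries, printed in each cell and coloured from blue (below the mean) to red (above). Ercc4 and Ddb2 are below their means in Ground-3 and Space-1 (-0.34 and -0.34 for Ercc4, -0.20 and -0.24 for Ddb2), while Ddb1, Ercc2 and Ercc3 stay within 0.082 of their means in all 6.

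The SD of log2 CPM over the 6 libraries was 0.042 for Ercc3, 0.044 for Ddb1 and 0.044 for Ercc2, and 0.087 for both Ercc6 and Xpc. It was 0.14 for Xpa and Ercc1, 0.16 for Ercc5, 0.17 for Ddb2 and 0.27 for Ercc4, where the median over all tested genes was 0.15. Between 4.67% and 5.24% of tested genes had a smaller SD than Ercc3, Ddb1 or Ercc2, and 72.2% had a smaller one than Ercc4. Ercc4 had 245 to 424 counts per library, Ercc5 had 262 to 437 and Xpa 108 to 158. Within the 10 genes, Ercc4 thus varied more than Ercc5, with similar counts, and Xpa, with fewer. The libraries in which Ercc4 and Ddb2 were low, Ground-3 and Space-1, belong to different groups. Such a pattern was common in the table: 23.5% of all tested genes had their lowest levels in just these libraries and 23.5% their highest, beside 2 and 3 of the 10 repair genes (lowest Ddb2 and Ercc4, highest Ddb1, Ercc2 and Ercc6). Of 14 spermatogonial markers 3 were lowest there and 4 highest, although their sum was steady. Picked after their values were seen, Etv5, a transcription factor gene induced by GDNF, had 93.0 CPM in Ground-3 and 99.1 in Space-1 against 194.7 to 261.8 in the others. Gfra1, which encodes a part of the GDNF receptor, had 100.4 and 101.3 CPM there against 141.1 to 148.6. Ret, which encodes another part of that receptor, did not share this pattern, with 401.4 and 403.3 CPM against 400.7 to 457.9. Nanos2, an RNA-binding protein gene of undifferentiated spermatogonia, was instead high there, with 12.1 and 11.4 CPM against 4.78 to 6.39. The feeder markers summed to 1098 CPM in Ground-3 and 869.2 in Space-1, with 6 of 17 lowest in these libraries. The endothelial markers summed to 11.0 and 10.6 CPM there against 13.1 to 20.8 in the others, carried by Kdr and Cdh5, while Pecam1 was not low (8.55 and 8.85 CPM against 7.46 to 8.57). The part of any of these lists in the level of Ercc4 or Ddb2 was not tested. In whole cultures, fewer cells of a type and less RNA per cell cannot be told apart.

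Genes with a pattern like that of Ercc4, the gene of the list with the largest spread, were found by Pearson's r of log2 CPM over the 6 libraries. The 3 highest of 15103 genes were Tpm3-rs7 (r = 0.996), Pnldc1 (r = 0.996) and Golga2 (r = 0.995), and 414 genes had an r over 0.95. Pnldc1, a nuclease gene of piRNA maturation, had 90.5, 91.3 and 80.1 CPM for Ground and 80.1, 93.1 and 95.7 CPM for Space. Ground-3 and Space-1 were the lowest here too. Tpm3-rs7 is named as a relative of Tpm3, and its counts are uncertain if the copies share reads. These likenesses rest on 6 libraries and were picked as the highest among all genes, so that they are a description only.

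To compare partners of a complex without any scaling between libraries, the ratio of their counts was taken within each library. Ddb1 exceeded Ddb2 by 3.88, 3.85 and 4.22 on the log2 scale for Ground and by 4.34, 3.91 and 3.87 for Space. Per exon length this was a 6.16- to 8.62-fold excess, with the largest in Ground-3 and Space-1. The group means of 3.98 ± 0.207 and 4.04 ± 0.260 did not differ beyond the spread (SD, n = 3; exact 2-sided permutation p = 0.6, or 0.9 adjusted over 3 ratios), where the smallest possible p is 0.1.

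The log2 ratio of Ercc1 to Ercc4, which encode a heterodimer, was 0.35, 0.78 and 1.05 for Ground and 0.90, 0.56 and 0.29 for Space. Per exon length Ercc1 exceeded Ercc4 between 2.65- and 4.48-fold. The ratio was lowest in Ground-1 and Space-3 and highest in Ground-3 and Space-1. The group means were 0.73 ± 0.354 and 0.59 ± 0.306 (SD, n = 3; 2-sided exact permutation p = 0.7, adjusted 0.9).

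The log2 ratio of Ercc2 to Ercc3 was -0.79, -0.61 and -0.58 for Ground and -0.66, -0.69 and -0.69 for Space. The helicase genes kept the narrowest range of the 3 ratios, 0.394 to 0.453 per exon length. The group means were -0.66 ± 0.110 and -0.68 ± 0.0153 (SD, n = 3; 2-sided exact permutation p = 0.9, adjusted 0.9).

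**Figure D4:**
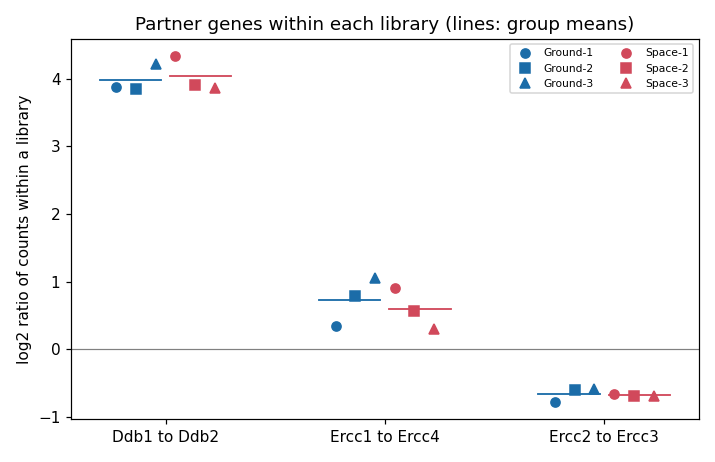
Log2 ratio of counts within each library for 3 pairs of partner genes, with 1 point per library (blue Ground, red Space; circle, square and triangle for numbers 1 to 3) and lines at the group means. Ercc1 to Ercc4 runs from 0.29 to 1.05 and Ercc2 to Ercc3 from -0.79 to -0.58, and the groups overlap in all 3 pairs.

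Of the other genes of the pathway, 43 were listed and all 43 were tested. None passed edgeR's quasi-likelihood test, with 0 of 43 at an adjusted p under 0.05 and 0 of 43 at an unadjusted p under 0.05. DESeq2 and limma-voom gave 0 of 43 as well, also unadjusted. The log2 fold changes lay between -0.17 and 0.084, with 18 positive and 25 negative and a median of -0.015. In 1 of 43 the groups did not overlap, against 3.59% of all tested genes. It was Pole2, a subunit of the replicative polymerase epsilon singled out after its values were seen, with 22.2, 22.1 and 23.2 CPM for Ground and 21.99, 21.2 and 20.2 CPM for Space (log2 fold change -0.092, SE 0.085, edgeR adjusted p = 0.9999).

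Among the 6 partners of damage recognition, Cul4b, the ligase scaffold that binds DDB1, had the highest level per length (48.0 CPM per kb) and a log2 fold change of 0.0061 (SE 0.053). Among the 7 transcription-coupled factors, Hmgn1, a nucleosome-binding protein, was the highest (137.8 CPM per kb, log2 fold change -0.023, SE 0.10). Uvssa, which brings TFIIH to the stalled polymerase, was the lowest (2.21 CPM per kb) and had the highest log2 fold change of the 43, 0.084 (SE 0.12).

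The 9 genes for other TFIIH subunits and for MMS19, which helps mature ERCC2, had SDs of log2 CPM between 0.036 and 0.091, below the median of all tested genes. Gtf2h1, a core subunit, had the highest level of these (34.2 CPM per kb, log2 fold change 0.070, SE 0.061), and Mnat1, part of its kinase module, the lowest (3.00 CPM per kb, log2 fold change -0.043, SE 0.092). Rpa2, a subunit of the protein that coats the undamaged strand, had 83.8 CPM per kb and a log2 fold change of -0.027 (SE 0.11). Slx4, a scaffold that binds ERCC4, had 7.95 CPM per kb. Its level was 73.0, 61.8 and 51.0 CPM for Ground and 49.3, 60.3 and 70.0 CPM for Space, lowest in Ground-3 and Space-1 as for Ercc4. Gtf2h1 was lowest in these libraries too, but Hmgn1 was highest there, with 492.8 and 468.5 CPM against 386.0 to 463.1. Among all tested genes, 23.5% were lowest in just these libraries and 23.5% highest, so the pattern is not particular to the pathway. The log2 fold change of Slx4 was -0.050 (SE 0.16).

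Of the 17 genes for resynthesis and ligation, Lig1, the ligase of replication, had the highest level (109.9 CPM per kb, log2 fold change -0.025, SE 0.11). Pold4, the smallest subunit of polymerase delta, had the lowest, 3.90 CPM per kb. It varied more between libraries than any other gene of the pathway listed here, with 6.09, 5.27 and 3.07 CPM for Ground and 1.61, 4.37 and 6.84 CPM for Space. The lowest values were in Ground-3 and Space-1, where other genes of the pathway such as Hmgn1 were highest. The highest value of Pold4 was 4.26-fold above its lowest. Its log2 fold change of -0.17 (SE 0.48) was the lowest of the 43, on 39 to 171 counts per library. Another annotated gene overlaps 286 of its 1164 exon bases on the same strand.

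**Figure D5:**
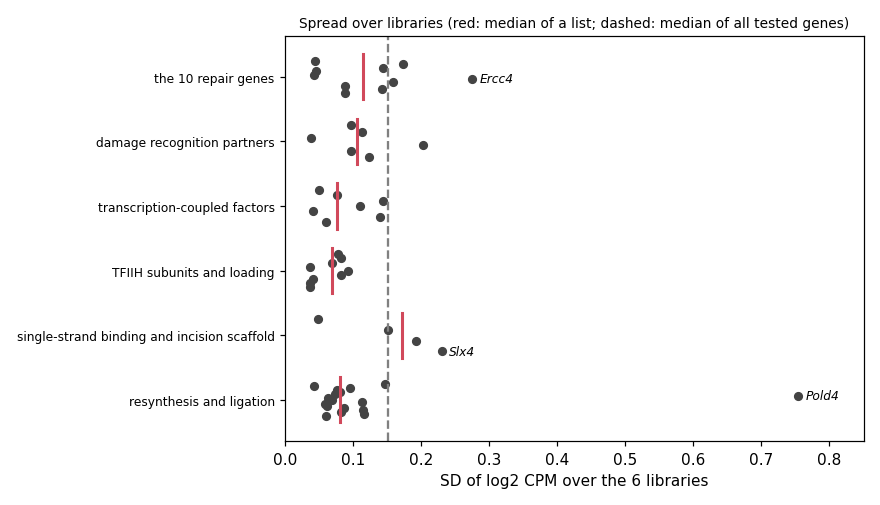
SD of log2 CPM over the 6 libraries, 1 point per gene, for the 10 repair genes and for the other pathway genes by role. Red lines are list medians (0.11 for the 10 genes, 0.069 for TFIIH subunits) and the dashed line is the median of all tested genes (0.15); the genes with an SD above 0.22, Ercc4, Slx4 and Pold4, are named.

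Counts of 5 of the 10 genes can include reads of a neighbour or lack reads from shared exons, because their exons overlap another gene in GENCODE M21. The sources do not give the strand and overlap options used for counting. The overlap on the opposite strand was 23.8% of the exon length for Ddb2 (Acp2), 24.6% and 17.8% for Ercc2 (Gm26852 and Klc3), 5.12% for Ddb1 (Tkfc), 4.07% for Xpa (Ncbp1) and 3.41% for Ercc1 (Cd3eap). Ercc2 also overlaps Mir343 on its own strand, over 0.264% of its exon length. Xpc, Ercc3, Ercc4, Ercc5 and Ercc6 had no such overlap.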

How the data were processed

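The authors deposited raw counts per gene for 6 RNA-seq libraries, 3 titled Space and 3 titled Ground. Per the labels and methods, mRNA libraries from stranded kits were trimmed with cutadapt (4.1 in the submitters' processing notes), aligned to mm10 with HISAT2 2.2.1 using GENCODE M21, and counted with HTSeq 2.0.2, whose strand and overlap settings are not given in the sources used here. Of the gene identifiers, 32235 were in GENCODE M21, which gave positions and exon lengths (the union of all exons), and 50 were not.

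The test was that of edgeR 4.0.16 (R 4.3.3): filterByExpr by group (15104 genes), TMM scaling, and the 2-sided quasi-likelihood F test over all genes without a replicate block, Benjamini-Hochberg adjusted, threshold 0.05. The SE is the size of the log2 fold change divided by the square root of F, and the 95% interval uses the t quantile of the fit. Log2 CPM used a prior count of 2. The biological coefficient of variation was 13.9%. Tested on simulated counts of 15104 genes for this comparison, the fit found 26.9% of true 1.5-fold changes, 79.1% at 2-fold and 98.5% at 4-fold, and made 6 false calls. The simulation gave every gene the same dispersion and drew the libraries independently. The real genes differ in spread and share patterns across libraries, so these rates may not hold for the real data. Ratios within libraries were compared by exact permutation tests (SciPy 1.17.1).

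The genes and lists were chosen with earlier results of these data known. Named besides the 10 genes were, in each role of the pathway, the genes highest and lowest per kb, the highest and lowest log2 fold change, and any at an unadjusted p under 0.05 (there was none), plus the 3 genes most like Ercc4. A gene that this rule names is not reported here. Promoter motifs were chosen after the values were seen. Alternatives were RLE scaling, total counts, no mitochondrial genes, other filters, DESeq2 1.42.0, limma-voom (limma 3.58.1), a replicate block and leaving out each library.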

Additional observations from a re-analysis of the deposited data

How the results depend on the processing

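The count of repair genes past the threshold was 0 of 10 in all 14 alternatives, and that of the other pathway genes 0 of 43, with 0 at an unadjusted p under 0.05 among either in each of them. Over all genes it was 0 as well, where the genes at an unadjusted p under 0.05 numbered 64 to 161 in fits without 1 library and 45 to 192 in the others. Under a replicate block, 0 genes passed (63 at an unadjusted p under 0.05). Deviations of libraries from their group mean were correlated over the 1000 most variable genes. Same-numbered libraries did not deviate together for numbers 1 and 3 (-0.48 and -0.60). For number 2 the correlation was 0.28, and Ground-2 and Space-2 were the 2 of 6 libraries that correlated best with their own number. Ground-1 was closest to Space-3 (0.63) and Ground-3 to Space-1 (0.60), and the block changed no call. As a replicate block of within-number differences, the ratios gave means of 0.053 for Ddb1 to Ddb2, -0.14 for Ercc1 to Ercc4 and -0.021 for Ercc2 to Ercc3 (exact sign-flip permutation p = 0.75, 0.75 and 1, smallest possible 0.25). These means equal those of the unpaired test by construction, as the groups are of equal size, so that only the p-values could differ.

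Of 140 log2 fold changes of single genes under the alternatives, 18 changed sign, none past the threshold, and the cause was not tested. Xpc was 0.0015 with RLE scaling, 0.036 with total counts, 0.00069 without mitochondrial genes, 0.0016 with DESeq2 and 0.00099 with limma-voom, and Ddb2 was 0.0072 with total counts, which moved the median of all genes to 0.033. Fits without 1 library ranged from -0.040 to 0.066 for Xpc, -0.012 to 0.047 for Ddb1, -0.12 to 0.077 for Ddb2, -0.16 to 0.042 for Ercc1, -0.028 to 0.027 for Ercc2, -0.042 to 0.27 for Ercc4 and -0.0058 to 0.11 for Ercc6. Xpa (-0.26 to -0.12, nearest to 0 without Ground-3), Ercc3 (0.0083 to 0.057) and Ercc5 (0.0063 without Space-3 to 0.20 without Ground-1) kept their sign in all 14. The median of the 10 genes lay between -0.0073 and 0.048 in all alternatives. Without 1 library the ratios ranged from -0.096 to 0.17 for Ddb1 to Ddb2, -0.33 to 0.020 for Ercc1 to Ercc4 and -0.084 to 0.016 for Ercc2 to Ercc3. With 3 libraries a group, intervals of the ratio between groups reached 1.48-fold for Ercc4.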
